A study of Mus musculus with 6 samples.

Results

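The genes described here are 8 members of the phospholipid flippase system, out of 25124 gene symbols in the deposited table. They are the P4-ATPase genes Atp9a, Atp9b, Atp8a1, Atp8b2, Atp8b4, Atp11a and Atp11b, and Tmem30a, the gene of the accessory subunit that most P4-ATPases need. The list was drawn up because Atp9a was expressed in cells labelled E4BP4 knockout and near 0 in control cells, so the members were chosen by the TPM of Atp9a in that comparison, and its values are a description, without a test. The other 7 entered by family, with results of these data known, and nothing is concluded from how many of them passed. All 8 were present in the table and all 8 passed the filter on low values, Atp9a only through the knockout-labelled libraries.

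The libraries came from untreated RAW264.7 cells, a mouse macrophage-like tumour cell line, with 3 libraries labelled E4BP4 knockout and 3 labelled control. E4BP4, the product of Nfil3, is a basic leucine zipper factor known mainly as a repressor of transcription. Both groups share the line, the medium and the absence of a treatment, and polyadenylated RNA was sequenced. The sources used here do not state how the knockout was made, whether it is 1 clone, or whether replicates came from separate cultures. The p-values therefore rest on a spread between libraries that may be technical, and a difference between cell populations of the line cannot be told apart from an effect of E4BP4. In bulk RNA, fewer cells that express a gene and less RNA of it per cell cannot be told apart either.

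P4-ATPases use ATP to move phospholipids from the outer or lumenal leaflet of a membrane to the cytosolic leaflet. They keep phosphatidylserine on the inner face of the plasma membrane, whose exposure on dying cells is a signal that macrophages recognise, and they help to shape membranes that bud from endosomes and the Golgi. Most P4-ATPases need a TMEM30 (CDC50) subunit to leave the endoplasmic reticulum, and TMEM30A is the widely expressed one. ATP9A and ATP9B are the known exceptions, working without it on endosomes and the trans-Golgi network. Scramblases oppose flippases by letting phospholipids move in both directions.

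Levels are in TPM, a unit that scales read numbers by transcript length and by library, so levels of different genes can be roughly compared. The listed values sum to 551257 to 556083 TPM a library, so they are not scaled over the listed genes alone. A comparison between genes also rests on the 1 transcript counted for each. For 3 of the 8 members, Atp9a, Atp9b and Atp8a1, the 2 deposited tables used different transcripts. The reads recovered from the TPM steps of the listed genes came to 18373052 to 19867732 a library under the knockout label. In the controls they came to 15615639 to 18110568. These are not the full depth, since the totals that the authors deposited were higher for every library. The targeted gene Nfil3 had 105, 104 and 99.8 TPM under the knockout label, against 29.5, 29.9 and 31.0 TPM in the controls. The targeted transcript was thus 3.41-fold higher under the knockout label (limma adjusted p = 4.96e-09), and transcript levels say nothing about loss of the protein. All directions below depend on the labels being right. Of 10 macrophage markers, all 10 were tested, and their summed level was 4179 to 4324 TPM under the knockout label and 3010 to 3237 TPM in the controls. That difference lay in Lyz2, at 2218 ± 49.2 TPM under the knockout label and 1069 ± 78.3 TPM in the controls (SD, n = 3 each). The other 9 summed to 2012 to 2059 TPM under the knockout label and 1993 to 2078 TPM in the controls. In that list 3 markers rose in limma, Lyz2, Cd14 and Spi1, and 5 fell, among them Fcgr1 to 0.294 and Cd68 to 0.792 of the control mean, where 26.7% of all genes tested rose and 23.4% fell. The list of 44 markers of other cell types had 43 genes in the table. Their summed level was 7.48 to 7.95 TPM under the knockout label and 7.53 to 8.21 TPM in the controls. The neutrophil marker S100a8 was the highest and the only one tested, and did not pass. Of these markers 11 were at 0 in every library, among them Cd3g, Mpo and Krt8. The part of any of these in the results was not tested.

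Atp9a encodes a flippase of endosomes and the trans-Golgi network that in human cells acts in recycling of membrane proteins. It lies on the minus strand of chromosome 2, and the 2 deposited tables counted it on different RefSeq transcripts. The TPM table used NM_001289446, at chr2:168634438-168742136 in mm10, and the authors' comparison table used NM_001289445, which begins 7.79 kb further downstream. In GENCODE M21 each has 28 exons and they share 27 of them, so that 98.7% of the exonic bases of NM_001289446 are common to both, and the deposited values do not tell which start was in use. The RefSeq start windows used here (250 bases before to 50 after a gene start, GRCm38.p6) cover 7 of the 8 members. Atp9b is the member without one, and there are 11 windows in all. The downstream Atp9a start is poor in CG dinucleotides, as is the start of Atp8b4, whereas that of Atp11b is rich in them. The stretches just before these 3 starts are shown for that contrast, 5′ to 3′ on the gene's strand, with every CG in capitals, as the part of the 250 bases that lies in no annotated exon of these genes. They are chr2:168734340-168734589 for Atp9a, chr2:126491574-126491803 for Atp8b4, both on the minus strand, and chr3:35753813-35754062 for Atp11b on the plus strand.
Atp9a: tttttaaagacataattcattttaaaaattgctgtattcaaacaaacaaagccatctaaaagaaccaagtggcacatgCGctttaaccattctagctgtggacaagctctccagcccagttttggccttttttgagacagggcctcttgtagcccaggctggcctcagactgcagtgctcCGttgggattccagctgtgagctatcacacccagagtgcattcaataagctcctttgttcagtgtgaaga
Atp8b4: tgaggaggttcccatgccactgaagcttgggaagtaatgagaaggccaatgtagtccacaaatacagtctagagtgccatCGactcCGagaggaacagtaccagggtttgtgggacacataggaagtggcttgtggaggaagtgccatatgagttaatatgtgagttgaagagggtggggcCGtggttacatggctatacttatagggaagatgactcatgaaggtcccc
Atp11b: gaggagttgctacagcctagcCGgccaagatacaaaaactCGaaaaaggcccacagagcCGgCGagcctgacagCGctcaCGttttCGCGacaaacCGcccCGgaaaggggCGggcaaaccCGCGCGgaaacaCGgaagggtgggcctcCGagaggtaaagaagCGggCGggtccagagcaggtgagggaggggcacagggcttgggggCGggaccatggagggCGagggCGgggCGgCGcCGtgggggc

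The Atp9a stretch held 2 CG and the Atp8b4 stretch 3, against 24 in the Atp11b stretch. Over the full 300-base windows, the 4 Atp9a starts held 3, 6, 21 and 65 CG, with 65 at a start whose window was 88.7% G and C. The downstream start shown above is the one with 3. The start of NM_001289446, on which the TPM levels were counted, is the one with 21, and 75.2% of all windows held fewer. The windows of the other members ran from 4 CG for Atp8b4 to 39 for Atp11a, and the median over all 32851 RefSeq windows was 7. Both strands of each window were searched for the E4BP4 sites TTATGTAA and TTACGTAA, for the ATF4 composite site TGATGCAA and for the AP-1 site TGACTCA. None of these motifs contains another. Neither E4BP4 sequence nor the ATF4 sequence occurred in any of the 11 windows. Among all windows TTATGTAA occurred in 0.938%, TTACGTAA in 0.119% and TGATGCAA in 0.895%. TGACTCA occurred in 1 member window, 38 bases before the Atp8b4 start, and in 5.20% of all windows. No match says only that these letters are not in this window.

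For Atp9a the level was 15.1, 15.1 and 15.9 TPM in the 3 knockout-labelled libraries, against 0.167, 0.192 and 0.264 TPM in the controls. All 3 knockout-labelled libraries were far above all 3 controls and lay close together. The controls were more spread for their level and rested on 9, 10 and 12 reads. Its mean was 15.4 ± 0.444 TPM under the knockout label, 74.1 times the control mean of 0.208 ± 0.0504 TPM (SD, n = 3 libraries each). The knockout-label level rested on 2561 reads and the control level on 31 reads, each over 3 libraries, with an exact Poisson interval of 21.1 to 44.0 reads at 95% for the 31, which covers counting error only. The log2 fold change was 3.76 on log2(TPM + 1), a scale that understates the change of a gene this low in the controls. It was 5.67 with a pseudocount of 0.1 and 6.16 with limma-voom on recovered reads, and the authors' deposited table gave 6.22.

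**Figure D1:**
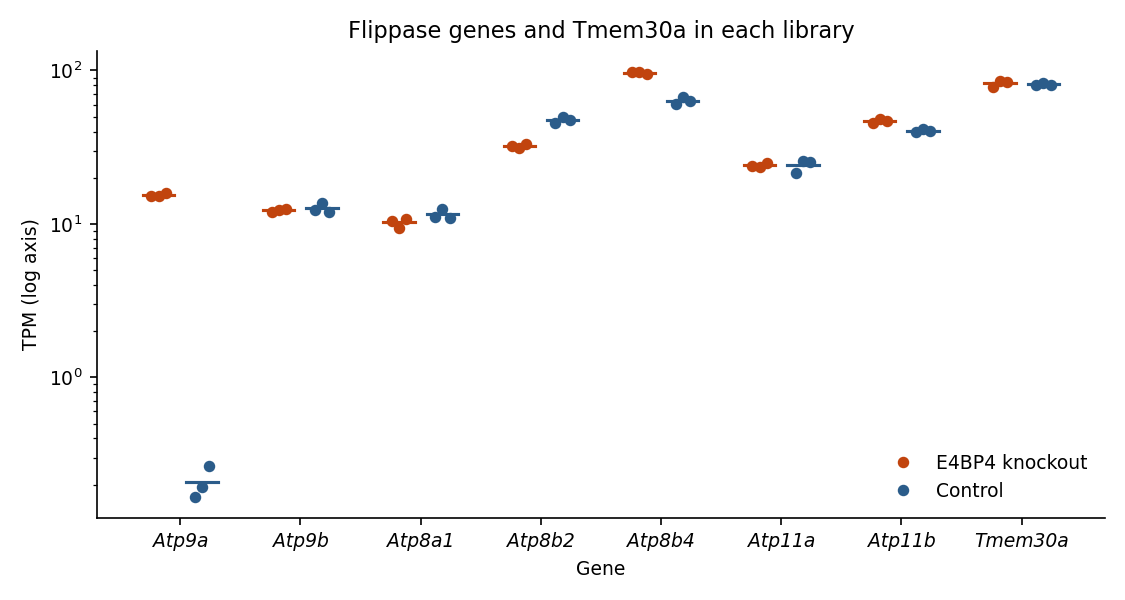
TPM on a log axis for each of the 8 genes, with points for the libraries and a line for the mean of 3, knockout-labelled libraries left and control libraries right. Atp9a sits near 15 TPM under the knockout label and between 0.167 and 0.264 TPM in the controls, whereas the other 7 genes lie between 9.44 and 97.8 TPM in every library.

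Atp9b, the closest relative of Atp9a, encodes a flippase of the trans-Golgi network and lies on chromosome 18. It measured 12.01, 12.3 and 12.5 TPM in the knockout-labelled libraries, against 12.3, 13.8 and 12.01 TPM in the controls. The groups overlapped, and the difference did not pass (log2 fold change −0.04, SE 0.06, limma adjusted p = 0.572). The ratio of Atp9a to Atp9b TPM was 1.26, 1.23 and 1.27 under the knockout label, against 0.0136, 0.0139 and 0.0220 in the controls. Atp9a was thus the higher of the pair in every knockout-labelled library and the lower in every control. Their summed level was 27.7 ± 0.669 TPM under the knockout label and 12.9 ± 0.920 TPM in the controls (SD, n = 3 each). The ratio and the sum both contain Atp9a, whose change chose the list, so these gaps were built in by that choice.

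Of the 7 members other than Atp9a, 2 rose, 1 fell and 4 did not pass in limma at an adjusted p under 0.05. Across all 11257 genes tested 50.1% passed, 26.7% upward and 23.4% downward. With so high a background, a count of 3 of 7 says nothing particular about flippases. The median log2 fold change of the 7 was 0.01, against 0.02 over all genes tested.

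The ATP8B genes among the members, Atp8b4 and Atp8b2, moved in opposite directions. Atp8b4 encodes a P4-ATPase that is expressed in blood cells. It stood at 97.3, 97.8 and 94.4 TPM in the knockout-labelled libraries, against 60.4, 67.0 and 63.3 TPM in the controls. It was higher in 3 of 3 knockout-labelled libraries than in any control, and rose 1.52-fold (log2 fold change 0.60, SE 0.04, limma adjusted p = 5.43e-06). Atp8b2 encodes a P4-ATPase of the plasma membrane that in human cells moves phosphatidylcholine. Its level was 32.1, 31.2 and 33.3 TPM under the knockout label, against 45.6, 49.7 and 47.7 TPM in the controls. Every knockout-labelled library lay below every control, and Atp8b2 fell to 0.676 of the control mean (log2 fold change −0.55, SE 0.05, limma adjusted p = 1.10e-05). The ratio of Atp8b4 to Atp8b2 TPM was 2.83 to 3.13 under the knockout label and 1.32 to 1.35 in the controls, without overlap.

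Of the ATP11 genes, Atp11b rose by little and Atp11a did not pass. Atp11b encodes a flippase of endosomes and the Golgi. Its libraries gave 45.8, 48.6 and 46.9 TPM under the knockout label, against 39.9, 41.7 and 40.1 TPM in the controls. The groups did not overlap, and the rise was 1.16-fold (log2 fold change 0.21, SE 0.04, limma adjusted p = 0.00209). Atp11a encodes a plasma membrane flippase for phosphatidylserine that caspases cleave in dying cells. Its level was 23.9, 23.4 and 25.0 TPM under the knockout label, against 21.4, 25.7 and 25.2 TPM in the controls, with overlapping groups (log2 fold change 0.01, SE 0.07, limma adjusted p = 0.947). The sign of that value turned under upper-quartile scaling (−0.01).

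Atp8a1 encodes a flippase for phosphatidylserine on endosomes and at the cell surface. Its level was 10.5, 9.44 and 10.8 TPM in the knockout-labelled libraries, against 11.1, 12.6 and 10.97 TPM in the controls. The groups did not overlap, as for 58.5% of all genes tested, but the highest knockout-labelled library came close to the lowest control. The log2 fold change of −0.16 (SE 0.07) did not pass in limma (adjusted p = 0.0927). It passed after upper-quartile scaling (limma adjusted p = 0.0486), with limma-voom on recovered reads (0.00395) and with limma on the authors' deposited log2 values (0.00800), so its call depends on the scale. In those fits 51.1% of all genes tested passed after upper-quartile scaling (26% downward), 54.8% with limma-voom and 54.7% on the authors' deposited values. The authors' deposited table, on another RefSeq transcript, gave a log2 fold change of −0.18 with an adjusted p of 0.0195.

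Tmem30a encodes the subunit that the ATP8A, ATP8B and ATP11 enzymes need. It stood at 77.8, 85.0 and 84.4 TPM in the knockout-labelled libraries, against 80.6, 83.5 and 79.9 TPM in the controls. The groups overlapped (log2 fold change 0.02, SE 0.04, limma adjusted p = 0.755), and the sign turned after upper-quartile scaling (−0.00271). Its TPM divided by the summed TPM of the P4-ATPases other than Atp9a and Atp9b was 0.339, 0.368 and 0.366 under the knockout label, against 0.405, 0.380 and 0.385 in the controls. Of the other subunit genes, Tmem30b was at most 0.04 TPM in any library and Tmem30c was listed at 0 in all 6.

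**Figure D2:**
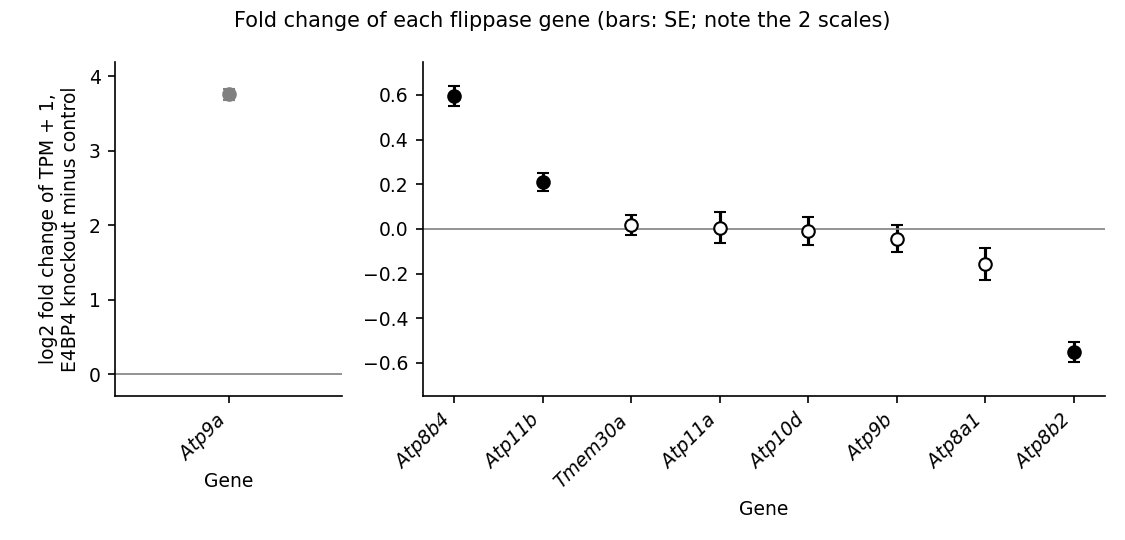
Log2 fold change of log2(TPM + 1), E4BP4 knockout minus control, with bars of 1 SE from limma (n = 3 libraries a group), on 2 vertical scales, for the 8 genes and for Atp10d. Filled black points passed at an adjusted p under 0.05, open points did not and the grey point of Atp9a was not tested; Atp9a stands at 3.76, whereas the other genes lie between −0.55 for Atp8b2 and 0.60 for Atp8b4.

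The order of levels differed between the groups. In the libraries labelled knockout it ran Atp8b4, Tmem30a, Atp11b, Atp8b2, Atp11a, Atp9a, Atp9b and Atp8a1 from high to low. No neighbours in that order overlapped over the 3 libraries. In the controls it ran Tmem30a, Atp8b4, Atp8b2, Atp11b, Atp11a, Atp9b, Atp8a1 and Atp9a. Only Atp9b and Atp8a1 overlapped there, at 12.01 to 13.8 and 10.97 to 12.6 TPM. Atp9a thus stood sixth, above Atp9b and Atp8a1, under the knockout label and last of 8 in the controls. Atp8b4 and Tmem30a changed places, as did Atp11b and Atp8b2.

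Across the 15 P4-ATPase genes in the table, the summed level was 257, 258 and 259 TPM in the knockout-labelled libraries, against 212, 233 and 220.1 TPM in the controls. That is 258.1 ± 1.20 TPM under the knockout label and 221.7 ± 11.03 TPM in the controls (SD, n = 3 each), without overlap. These means include 15.4 and 0.208 TPM of Atp9a, whose change chose the list, so part of the gap was built in by that choice. Atp8b4 supplied 37.4 ± 0.832% of that sum under the knockout label and 28.7 ± 0.121% in the controls. Atp8b2 supplied 12.5 ± 0.385% under the knockout label and 21.5 ± 0.201% in the controls. Atp9a supplied 5.96 ± 0.151% under the knockout label and 0.0937 ± 0.0228% in the controls. The share of Atp11b stayed close, at 18.2 ± 0.519% under the knockout label and 18.3 ± 0.508% in the controls (SD, n = 3 each).

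**Figure D3:**
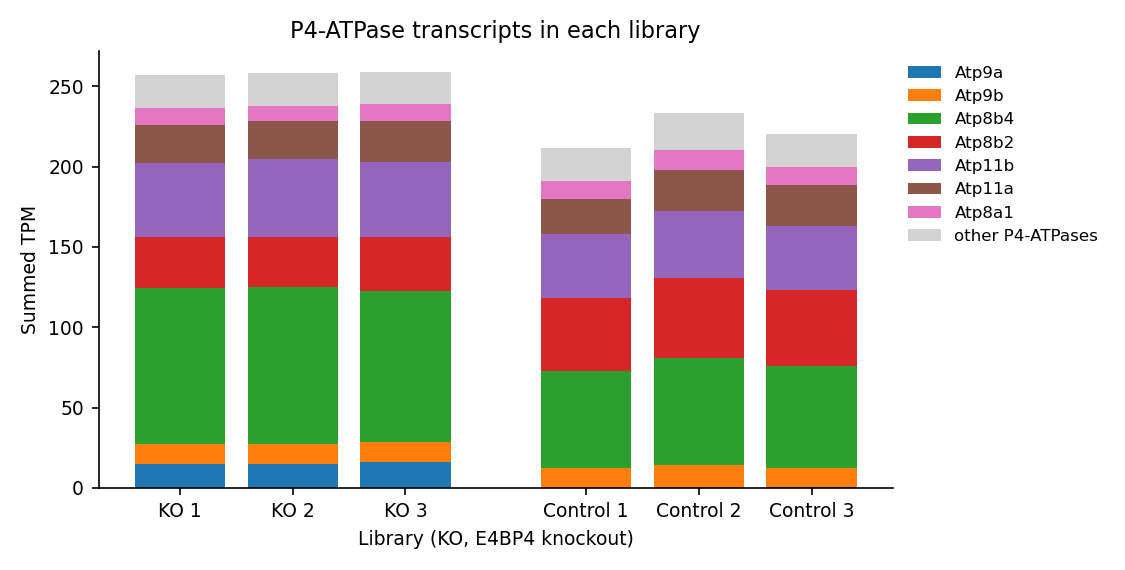
Summed TPM of the P4-ATPase genes in each library, stacked by gene, with the other P4-ATPases in grey, and with knockout-labelled libraries (KO) left and controls right. The 3 knockout-labelled libraries reach 257 to 259 TPM and the controls 212 to 233 TPM, with the Atp9a segment visible only under the knockout label.

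The other P4-ATPases of the family were mostly near 0 in these cells. Of 10 further genes of the family and its subunits 8 were under the filter, with at most 0.286 TPM in any library. Among these were Atp8a2, with 0.049, 0.151 and 0.140 TPM in the knockout-labelled libraries and 0.081, 0.117 and 0.192 TPM in the controls, and Atp10a, at 0 in 5 of 6 libraries. Atp9a in the controls lay at the level of these genes, near Atp8b5 (0.175 to 0.207 TPM under the knockout label, 0.187 to 0.286 TPM in the controls). Of the 2 tested, 0 passed in limma and 0 at an unadjusted p under 0.05, where 50.1% of all genes tested passed after adjustment. With limma-voom, in which 54.8% of all genes passed, 1 was called lower. Atp10d averaged 5.87 ± 0.198 TPM under the knockout label and 5.91 ± 0.261 TPM in the controls (SD, n = 3 each), which did not pass (log2 fold change −0.01, limma adjusted p = 0.929).

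Partners of ATP9A moved both ways by small amounts. In the list of ATP9A partners and retromer genes 4 of 14 tested members rose and 5 fell, beside 26.7% and 23.4% of all genes tested, with a median log2 fold change of 0.04. With a library left out, 2 to 4 rose and 4 or 5 fell, where 4740 to 5442 of all 11257 genes tested passed. MON2 and DOP1B form a complex with ATP9A in human cells, and the retromer with the sorting nexin SNX3 returns cargo from endosomes to the Golgi. Snx3 fell to 123.2 ± 3.43 TPM under the knockout label, against 143 ± 3.61 TPM in the controls (SD, n = 3 each; limma adjusted p = 0.00116). The sorting nexins Snx2, Snx5 and Snx1 fell too, with log2 fold changes of −0.39, −0.35 and −0.24. The retromer subunit gene Vps26a had the smallest difference of the list (log2 fold change 0.03, adjusted p = 0.670). Mon2, Dop1a and Dop1b were named for their known link to ATP9A, after their values were seen. Mon2 measured 11.4, 11.5 and 12.3 TPM in the knockout-labelled libraries, against 8.74, 10.4 and 10.5 TPM in the controls, and rose (log2 fold change 0.23, limma adjusted p = 0.0272). That call ended without control replicate 1 (limma adjusted p = 0.0590) and without any single replicate of the knockout label (0.0513 to 0.0899), and with no filter on low values (0.0772). Dop1a rose (log2 fold change 0.29) and Dop1b fell (−0.26, limma adjusted p = 0.0254). The Dop1b call ended without control replicate 2 (limma adjusted p = 0.0841) and without replicate 1 or 2 of the knockout label (0.0765 and 0.0773), and with no filter on low values (0.0721).

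Genes of the opposing activity, the scramblases, did not share a direction. Of 9 tested members 2 rose and 3 fell, which is near the 50.1% of all genes tested that passed, with a median log2 fold change of −0.00278, and the other 10 of the 19 listed were under the filter at no more than 0.069 TPM. Xkr8, the caspase-activated scramblase that exposes phosphatidylserine, fell to 1.91 ± 0.188 TPM under the knockout label, against 2.74 ± 0.302 TPM in the controls (SD, n = 3 each; limma adjusted p = 0.0118). Ano6, the calcium-activated scramblase, averaged 26.2 ± 1.04 TPM under the knockout label and 26.2 ± 0.893 TPM in the controls, and did not pass (adjusted p = 0.966). Vmp1, a scramblase of the endoplasmic reticulum, and Plscr4 rose (log2 fold changes 0.22 and 0.38), and Plscr3 fell (−0.28).

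Genes that make the lipids flippases carry had 5 of 12 tested members higher and 2 lower, beside 26.7% and 23.4% of all genes tested. Their median log2 fold change was 0.10. Pcyt2, the rate-limiting enzyme of phosphatidylethanolamine synthesis from ethanolamine, fell to 41.4 ± 0.634 TPM under the knockout label, against 74.4 ± 1.07 TPM in the controls (n = 3 each, SD; limma adjusted p = 1.70e-07). Ptdss2, a phosphatidylserine synthase, rose 1.32-fold (limma adjusted p = 3.32e-04), while the other synthase, Ptdss1, did not pass (log2 fold change −0.01). Chka and Pcyt1a, enzymes of phosphatidylcholine synthesis, rose by 0.37 and 0.41 on the log2 scale.

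Among P-type ATPases that move ions or other substrates 6 of 11 tested fell and 2 rose (median log2 fold change −0.17), beside 23.4% and 26.7% of all genes tested. With limma-voom 8 fell and 2 rose, beside 27.9% and 26.9% of all genes tested. Atp1b3, a sodium pump subunit, and Atp2a3, a calcium pump of the endoplasmic reticulum, fell by 0.28 and 0.30 on the log2 scale, and the plasma membrane calcium pump gene Atp2b1 rose by 0.21. Atp7a, a copper pump, did not pass (log2 fold change 0.11). Of 9 tested lipid-exporting ABC transporters 4 fell and 0 rose in limma (median log2 fold change −0.15), beside 23.4% and 26.7% of all genes tested. At an unadjusted p under 0.05, 1 was higher, and limma-voom called 1 higher and 6 lower, beside 26.9% and 27.9% of all genes tested. The fit with the replicate block called 1 higher and 4 lower. Abcb4, a phosphatidylcholine exporter, fell to 0.448 of the control mean, Abca7 to 0.572, Abcb1b to 0.809 and Abca2 to 0.803, and Abca3 did not pass (log2 fold change 0.01). Of 16 Arf and Golgi traffic genes 2 rose, 1 fell and 13 did not pass in limma, with a median log2 fold change of −0.05. That is 18.8% called, beside 50.1% of all genes tested. The Arf and Golgi count depends on the method. Limma-voom called 2 higher and 7 lower, where 26.9% of all genes tested rose and 27.9% fell. Limma on the authors' deposited log2 values called 2 higher and 6 lower, where 27.8% rose and 26.9% fell. Limma without control replicate 1 called 1 higher and 5 lower, where 5442 of all 11257 genes passed. Arfgef1, a guanine exchange factor related to MON2, rose 1.34-fold (limma adjusted p = 7.73e-04), Arl1 rose by 0.12 on the log2 scale and Vps53 fell by 0.17, while Stx6 did not pass (−0.01). The Arl1 call ended under upper-quartile scaling (limma adjusted p = 0.0599), with limma-voom (0.0857) and on the authors' deposited values (0.0939). It also ended with no filter on low values (0.0564), with the replicate block (0.0537) and without replicate 1 or 2 of either group.

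**Figure D4:**
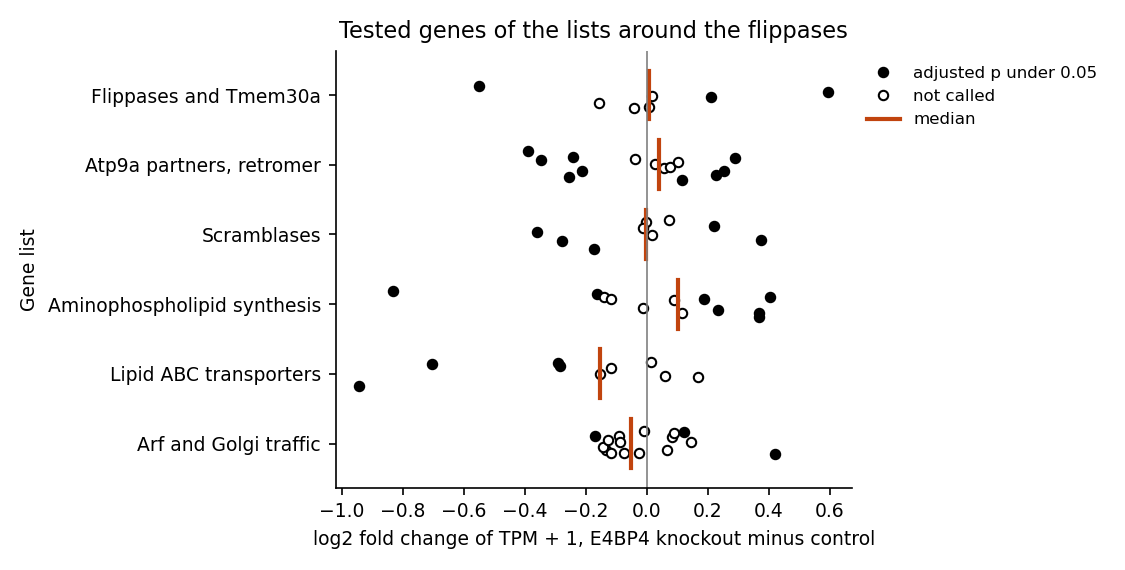
Log2 fold change of log2(TPM + 1), E4BP4 knockout minus control, for each tested gene of 6 lists, 1 row a list; filled points passed limma at an adjusted p under 0.05, open points did not, and the vertical marks are medians. Atp9a is left out, the flippase row spans −0.55 to 0.60, and the furthest point is Abcb4 at −0.94.

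Around Atp9a on chromosome 2, 6 other tested genes begin within 500 kb of the gene. None of the 6 was higher under the knockout label, and 4 fell in limma, where 23.4% of all genes tested fell. A count over so few genes, some of which overlap, is not a result about the region. Nfatc2, a calcium-regulated transcription factor gene 44.1 kb from Atp9a, stood at 8.24, 6.88 and 8.75 TPM in the knockout-labelled libraries, against 16.5, 16.6 and 16.4 TPM in the controls (log2 fold change −0.97, SE 0.08, limma adjusted p = 7.71e-06). Zfp64, a zinc finger gene on the other side, fell to 15.6 ± 0.348 TPM under the knockout label, against 19.8 ± 0.552 TPM in the controls (SD, n = 3 each). Dpm1 fell by 0.20 on the log2 scale and Gm20716 by 0.16, but Gm20716 overlaps both Dpm1 and Adnp, so the split of reads among them is uncertain. Adnp and Mocs3 did not pass (log2 fold changes −0.13 and −0.15, limma adjusted p = 0.0903 and 0.0620). Sall4, which lies 6.20 kb from Atp9a, was under the filter at no more than 0.073 TPM.

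**Figure D5:**
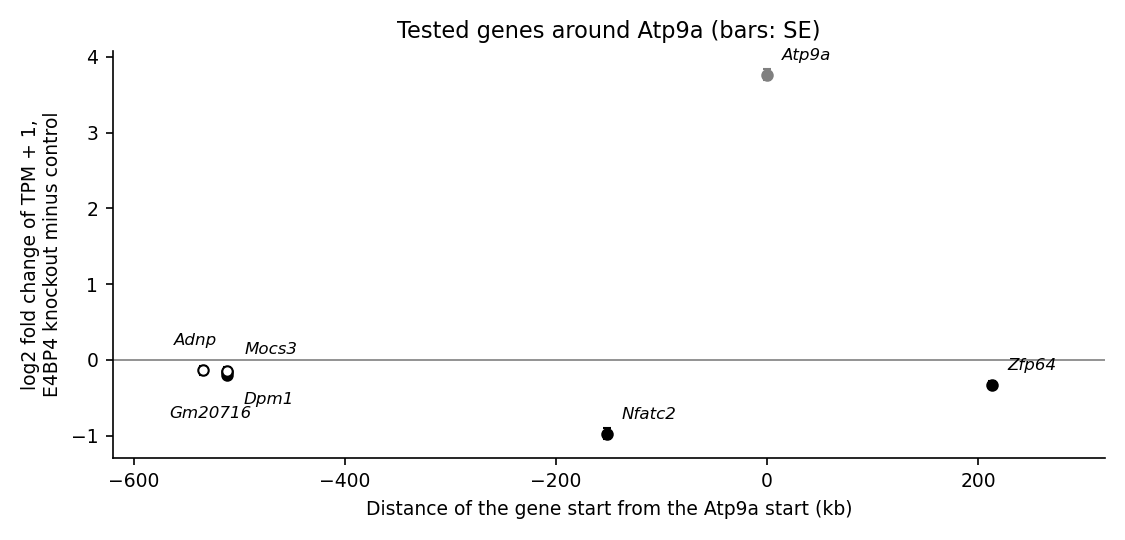
Log2 fold change of log2(TPM + 1), E4BP4 knockout minus control, against the distance in kb of each gene's start from the start of Atp9a, with bars of 1 SE. Atp9a (grey, not tested) stands at 3.76, and the 6 other tested genes lie between −0.97 for Nfatc2 and −0.13 for Adnp.

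The tested genes most like Atp9a over the 6 libraries, by Euclidean distance on log2(TPM + 1), were Diaph2, Chpf, Pla2g7, Zfp420 and Apoc2, at distances of 1.75, 1.97, 2.15, 2.46 and 2.54. Like Atp9a they were low in all controls and higher in all knockout-labelled libraries, by choice of the measure. Diaph2, a formin gene, measured 8.94, 8.76 and 9.98 TPM under the knockout label, against 0.936, 1.14 and 0.996 TPM in the controls. Apoc2, an apolipoprotein gene, stood at 5.25, 5.65 and 4.65 TPM under the knockout label, against 0.671, 0.581 and 0.399 TPM in the controls, which is 3 to 6 reads a control library. The readthrough gene Gm44805 overlaps Apoc2 and may share its reads. The ratios of the 5 ran from 5.18 for Zfp420 to 9.42 for Apoc2, all below that of Atp9a. They lie on 4 chromosomes, none of them chromosome 2.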

How the data were processed

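RNA of 3 libraries labelled E4BP4 knockout and 3 labelled control was compared. Per the submitters' processing notes the tools were STAR 2.7.5a, bcl2fastq, DESeq2 and HOMER 4.11.1 with build mm10, and no roles are given. The authors deposited TPM values (25124 symbols, 1 RefSeq transcript each) and a second table with log2 values per library (transform not given), their log2 fold change, and p-values. That table heads its comparison WT vs. TG; TG was read as the knockout label, and columns named WT as the control samples. Strand and multi-mapping treatment are not given in the sources used here.

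Genes with at least 1 TPM in at least 3 libraries were tested with limma 3.58.1 (R 4.3.3, mean-variance trend, two-sided) on log2(TPM + 1), with Benjamini-Hochberg adjustment over all genes. Fold changes are knockout minus control. The procedure was run on simulated data with few changed genes and the spread of the control libraries. Far more genes were called here, so that run cannot vouch for these calls. TPM times length fell within 0.1 of whole multiples of 1 step per library for 100% of low values checked, which gave recovered reads, used for depth and for limma-voom as an alternative. Replicates differed beyond sampling noise (chi-square per degree of freedom 1.74 to 5.50), so all 6 libraries were counted. Levels, ratios and counts were computed in Python 3.11.15. Start windows are RefSeq's (GRCm38.p6), gene models GENCODE M21.

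The members and lists were chosen with earlier results of these data known. Besides the members and Nfil3, the genes named are up to 4 called members of each of 7 lists with the smallest adjusted p, the members with the smallest change, the tested genes within 500 kb of Atp9a and the 5 nearest by pattern. The 5 exclude predicted genes, small RNAs and genes known by clone names. Mon2, Dop1a and Dop1b were named in addition. Some listed genes that this rule would name are not reported here.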

Additional observations from a re-analysis of the deposited data

How the results depend on the processing

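The counts of called genes over all genes, over the 7 members and over the 7 lists pooled stayed within 1.5 times under every alternative run: a pseudocount of 0.1, no filter, a mean of at least 0.5 TPM, upper-quartile scaling, limma-voom on recovered reads, limma on the authors' deposited log2 values, a replicate block, and leaving out each library. Atp8b4, Atp11b and Atp8b2 kept their direction and their call in all 13. The replicate numbers did not pair the libraries (correlations of deviations −0.01, −0.06 and 0.00), and the fit with the replicate block called 5297 genes, 3 of the 7 members and 33 list genes, against 5639, 3 and 36 without it. With a library left out the counts ran from 4740 to 5442 genes and from 29 to 38 list genes, and stayed at 3 of the 7 members. Within the pooled lists limma-voom called 16 higher and 32 lower, against 15 and 21. The Arf and Golgi list had 9 calls with limma-voom, 8 on the authors' values and 6 without control replicate 1, against 3. The ABC list had 7 with limma-voom, against 4. Over all genes tested 54.8% passed with limma-voom and 54.7% on the authors' values, against 50.1%. Upper-quartile scaling called 2819 genes higher and 2929 lower, against 3002 and 2637. For Atp9a the log2 fold change was 2.59 on the authors' deposited log2 values, 5.67 with a pseudocount of 0.1 and 6.16 with limma-voom. Dop1a, Dop1b and some other named genes had no value in the fit on the authors' log2 values. Signs turned only for values that did not pass. Atp11a was −0.0138 under upper-quartile scaling, −0.0129 with limma-voom and −0.00705 on the authors' values, Tmem30a was −0.00271 under upper-quartile scaling and −0.00201 with limma-voom, and Abca3 was −0.00651 and −0.00489 under those settings. With a library left out, values ranged from −0.0791 to 0.0124 for Atp9b, −0.0741 to 0.0534 for Atp11a, −0.00481 to 0.0583 for Tmem30a, −0.0345 to 0.01996 for Atp10d, −0.0134 to 0.0590 for Vps26a, −0.0333 to 0.0195 for Ano6, −0.0420 to 0.00635 for Ptdss1, −0.0583 to 0.0591 for Abca3 and −0.0645 to 0.0187 for Stx6. The cause was not tested. Depth limits Atp9a in the controls and the family members under the filter.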
